A study of Mus musculus with 24 samples.

Results

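Lin28b and the genes usually named with it as a fetal stem cell program were followed through 24 RNA sequencing libraries of mouse bone marrow. The 7 members were Lin28b, Lin28a, Hmga2, Igf2bp1, Igf2bp2, Igf2bp3 and Arid3a, found by their Entrez identifiers among 27179 gene rows, and all 7 had a row. The group was chosen by the level of Lin28b in multipotent progenitors (MPP) of Phf6-deleted against control mice, in these data, so that contrast is described without a test. HSC and HPC-1 did not choose the group but came from the same mice. There Lin28b had a larger fitted difference between genotypes than the other members fitted. That is a description too, and in HPC-1 it rests on controls with 33, 0, 0 and 3 counts of Lin28b. No member passed edgeR's test of deletion in HSC (5 tested) or HPC-1 (6 tested), where 0.0073% and 0.0647% of all genes did, so that count sets the members apart from no other genes.

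LIN28B is an RNA-binding protein that binds precursors of the let-7 microRNAs and blocks their maturation. It is known for its expression in fetal blood stem and progenitor cells and for its loss in adult ones, in which mature let-7 then represses targets such as Hmga2 and the Igf2bp messages. PHF6 is a nuclear PHD finger protein, encoded on the X chromosome, whose gene is recurrently mutated in T cell and myeloid leukaemias.

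Each of 8 mice, 4 with Phf6 deleted and 4 controls, gave 1 poly(A) RNA library from each of 3 sorted populations: haematopoietic stem cells (HSC), MPP, and HPC-1, a population of more restricted progenitors. The strain label, Phf6lox/Y;Tie2-creTg/+, was the same for all 24 libraries: a floxed Phf6 allele in males and a Cre driven by the Tie2 promoter, which is active in endothelial and blood cells. Only a separate status label, deleted or intact, told the genotypes apart, so the labels do not say whether control mice carried Cre. No age was labelled. The mice came from 4 litters, each with 1 deleted and 1 control mouse. HSC and MPP libraries were amplified with SMART-Seq v4 and HPC-1 libraries were made with a TruSeq Stranded kit, so levels in HPC-1 were not compared with those in HSC or MPP.

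The hairpins below are the RNAs on which LIN28B acts, shown because they carry the link between Lin28b and the other members. Mouse has 12 let-7 family hairpins in the RefSeq table (GRCm38.p6), and all 12 share 1 seed, GAGGUAG, at bases 2 to 8 of the mature microRNA. In 9 of them the letters GGAG, the motif bound by the zinc knuckles of LIN28 proteins, lie between the arms, and in 3 (let-7c-2, let-7b and miR-98) they do not. Capitals mark the seed and, where present, the GGAG letters.
let-7g, chr9:106178840-106178927, plus strand: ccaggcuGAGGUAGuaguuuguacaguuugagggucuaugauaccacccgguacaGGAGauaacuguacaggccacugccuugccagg
let-7a-1, chr13:48538179-48538272, minus strand: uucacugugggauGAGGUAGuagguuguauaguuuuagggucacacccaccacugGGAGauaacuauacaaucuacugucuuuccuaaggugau
let-7b, chr15:85707319-85707403, plus strand: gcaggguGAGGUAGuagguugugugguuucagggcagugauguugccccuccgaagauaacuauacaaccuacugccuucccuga
miR-98, chrX:151913214-151913321, plus strand: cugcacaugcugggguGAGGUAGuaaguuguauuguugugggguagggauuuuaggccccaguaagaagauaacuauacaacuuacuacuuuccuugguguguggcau
The libraries of polyadenylated RNA do not measure mature microRNAs. All 12 hairpin genes had a row in the table, 5 of them at 0 counts in every library, and the highest count of any hairpin in any library was 25.

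Lin28b (Entrez 380669) lies on chromosome 10, 45376617 to 45486314, on the minus strand of GRCm38. GENCODE lists 3 transcripts, of which 1, with 5 exons, codes for protein. The 250 bases before its start site are shown because Lin28b carries the finding. Capitals mark a CACGTG E-box and 2 GATA motifs (AGATAA, 1 of them on the other strand as TTATCT).
Lin28b, chr10:45470202-45470451, minus strand: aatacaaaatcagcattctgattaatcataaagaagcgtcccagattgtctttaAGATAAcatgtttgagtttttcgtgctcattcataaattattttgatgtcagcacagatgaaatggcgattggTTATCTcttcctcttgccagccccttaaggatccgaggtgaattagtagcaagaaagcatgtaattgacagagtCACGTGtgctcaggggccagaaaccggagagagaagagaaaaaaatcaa
The E-box spans positions -49 to -44 and the GATA motifs positions -196 to -191 and -123 to -118 from the start site. The same E-box letters occur on either strand in 6.02% and AGATAA in 9.99% of 32851 promoters of this length. GC content was 39.2%, lower than in most promoters (10.3% had less, and the median was 52.4%). Promoter sequence was at hand for 5 members, and of these only Igf2bp3 also held an E-box, at -23 to -18, and none held TATAAA. A match of letters is not a bound site.

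Lin28b was nearly silent in control MPP and was read in every deleted MPP library. The 4 control libraries, in litter order, held 1, 1, 0 and 0 counts of Lin28b, or 0.0601, 0.0757, 0 and 0 CPM (counts per library total, after scaling). The deleted libraries held 86, 133, 72 and 162 counts, or 4.40, 8.16, 7.0 and 7.20 CPM. No deleted library came near the range of the controls. Scaled to raw library totals, 453 against 2 counts made a ratio of 206 (95% counting interval 56.8 to 1709). That interval treats reads as independent, leaves out the spread between mice and is no test. The fitted log2 fold change was 7.43 ± 0.73 (SE). Its value depends on how the near-empty control group is fitted (6.90 with limma-voom). Groups that did not overlap, with deletion higher, made up 2.87% of the 13806 genes tested in MPP.

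In HSC, the stem cells upstream of MPP, Lin28b was read in control mice too and was higher in the deleted mouse of every litter, which held for 6.05% of the 13693 genes tested. The control libraries were at 0.971, 0.613, 3.47 and 2.94 CPM (14, 7, 53 and 29 counts). The deleted libraries of litters 1 to 4 were at 2.94, 14.6, 19.97 and 21.5 CPM (59, 281, 264 and 339 counts). The groups overlapped through 1 library: the deleted mouse of litter 1 lay below the control of litter 3, while the other 3 deleted mice lay above all controls. Means were 2.00 ± 1.42 CPM in controls and 14.7 ± 8.41 CPM in deleted mice (SD, n = 4 each), and the log2 fold change was 2.87 ± 0.70 (SE). With edgeR's quasi-likelihood test its unadjusted p was 0.00153 and its adjusted p over 13693 genes was 0.998. An exact 2-sided permutation test of the CPM gave p = 0.0571, where 4 against 4 cannot give less than 0.0286, and 12 such tests were made over the members. DESeq2 gave a similar log2 fold change of 2.89 with an adjusted p of 0.0246, so the call in HSC depends on the tool. Leaving out each library in turn gave log2 fold changes of 2.58 to 3.30, with an edgeR adjusted p of 0.502 to 1.

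In HPC-1, a more differentiated population, Lin28b was higher in the deleted mouse of 3 litters, and 1 control stood apart. Control libraries 1 to 4 held 33, 0, 0 and 3 counts of Lin28b, or 1.20, 0, 0 and 0.114 CPM. Deleted libraries held 20, 31, 57 and 105 counts, or 0.718, 1.62, 2.75 and 5.04 CPM. In litter 1 the control was above its deleted littermate, and in the other 3 litters the deleted mouse was above every control. Means were 0.329 ± 0.584 CPM in controls and 2.53 ± 1.87 CPM in deleted mice (SD, n = 4 each), and the log2 fold change was 2.87 ± 1.16 (edgeR unadjusted p = 0.0284, adjusted p = 0.878 over 13907 genes). The exact permutation p was again 0.0571. The log2 value rested on the control of litter 1: without it the value was 5.73 (edgeR adjusted p = 0.162), and with limma-voom or with the litter as a block it was 4.19 or 4.38, neither of them past the threshold of 0.05.

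**Figure D1:**
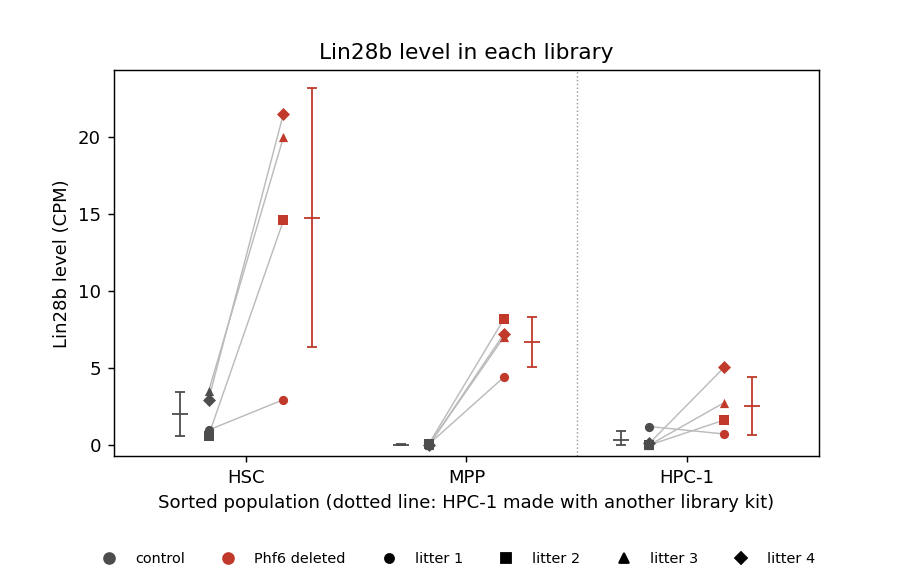
Lin28b level in CPM (vertical axis) in the 24 libraries, by sorted population (horizontal axis) and genotype; symbols show the litter, grey lines join littermates, and crossbars with whiskers are the mean ± SD of 4 libraries, cut at 0. Control MPP lie at 0 to 0.0757 CPM and deleted MPP at 4.40 to 8.16 CPM, while the deleted mouse of litter 1 is the lowest deleted mouse in each population and falls inside the control range in HSC and HPC-1.

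Across populations the deleted mouse was above its control littermate in 11 of 12 pairs of libraries for Lin28b. MPP chose the gene, and in HSC and HPC-1 alone the count was 7 of 8 pairs, which 5.09% of 12843 genes reached or exceeded. The 3 libraries of a mouse are not independent of each other. The deleted mouse of litter 1 had the lowest Lin28b of the 4 deleted mice in all 3 populations, at 2.94, 4.40 and 0.718 CPM. Whether the effect of deletion on Lin28b differed between HSC and MPP was not tested, since MPP chose the gene.

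HSC and MPP were made with the same kit, so their Lin28b levels can be set side by side, as a description. Control HSC held 103 counts of Lin28b in 4 libraries and control MPP 2. Scaled to raw library totals the ratio was 64.0 (95% counting interval 17.3 to 536, which leaves out the spread between mice). The 2 counts are among the values that chose the gene. In deleted mice the fitted log2 difference of MPP against HSC was -1.12 ± 0.54 (SE). There the populations overlapped, at 2.94 to 21.5 CPM in HSC and 4.40 to 8.16 CPM in MPP, and in litter 1 Lin28b was lower in HSC (2.94 CPM) than in MPP (4.40 CPM). Fewer cells with Lin28b RNA and less Lin28b RNA in each cell cannot be told apart in these bulk libraries.

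Phf6 itself checked the labels. Its level was 185 to 244 CPM in control HSC and 37.8 to 80.2 CPM in deleted HSC, 170 to 231 against 48.6 to 67.4 CPM in MPP, and 98.9 to 142 against 21.0 to 32.8 CPM in HPC-1, with no overlap in any population. In the order HSC, MPP, HPC-1 the log2 fold change was -1.95 ± 0.22, -1.82 ± 0.18 and -2.08 ± 0.16 (edgeR adjusted p = 0.0211, 0.00432 and 3.29e-05); with the litter as a block the HSC value was -1.99 with an adjusted p of 0.0606, and in HSC only 2 of the 8 fits that each left out 1 library passed (adjusted p = 0.00463 to 0.253, log2 fold change -2.17 to -1.78). Total counts ran from 9658167 to 27786830 per library. The threshold was passed by 1 of 13693 genes in HSC (0.0073%), 4 of 13806 in MPP (0.029%) and 9 of 13907 in HPC-1 (0.0647%). With the litter as a block these counts were 0, 6 and 60, and 474 genes in HSC then had an unadjusted p under 0.05, where DESeq2 called 19 and limma-voom 1. Slamf1, which encodes the CD150 used in the sort, was at 68.3 ± 14.6 CPM in control HSC and 1.88 ± 0.613 CPM in control MPP, and deleted HSC library 3 was low in it, at 9.08 CPM against 38.6 to 52.9 CPM in the other 3. Without that library Lin28b in HSC had a log2 fold change of 2.71.

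RNA of other cell types was present, and its means in part differed between genotypes. All 16 neutrophil and monocyte markers had a higher mean in deleted mice in all 3 populations, and none passed edgeR's test of deletion. Of all genes tested, 50.8%, 51.9% and 49.3% were higher in HSC, MPP and HPC-1. Summed levels were 634 to 7830 CPM in control and 1425 to 11031 CPM in deleted HSC. They were 219 to 2851 and 1382 to 13772 CPM in MPP, and 530 to 1621 and 516 to 3314 CPM in HPC-1. Genotypes overlapped each time. The highest sum in each population was that of the deleted mouse of litter 4. The other deleted mice were at 1425 to 4347 CPM in HSC, 1382 to 3416 CPM in MPP and 516 to 1789 CPM in HPC-1. Erythroid markers, 11 genes, were lower in sum in deleted HSC (1051 to 1774 CPM against 1960 to 2273 CPM), although 7 of the 11 had a higher mean there (median log2 fold change 0.13). The 2 with the lowest unadjusted p in HSC were Car2, a carbonic anhydrase (-0.63 ± 0.18), and Klf1 (-1.31 ± 0.47). Neither passed (edgeR adjusted p = 0.998 for each). The part of these shifts in the Lin28b values was not tested. Pluripotent and germ cell markers, 12 genes, were higher in sum in deleted MPP (36.8 to 152 CPM against 19.1 to 30.2 CPM), mostly through the germ cell gene Ddx4. Their sum was also higher in deleted HSC (7.57 to 20.4 CPM against 6.19 to 7.49 CPM), where deleted library 2 lay barely above control 1. Among single genes, 1.56% in HSC and 2.87% in MPP did not overlap with deletion higher. No marker of this list passed edgeR's test of deletion. Of these 12 markers, 7 were at 0 in every MPP library, and Pou5f1, the defining factor of pluripotent cells, was at 0 in all 24 libraries.

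The paralogue Lin28a, which encodes the other LIN28 protein and is best known from embryonic stem cells, was detected in scattered libraries at low counts. Control HSC held 17, 6, 0 and 0 counts of Lin28a, and deleted HSC 1, 1, 1 and 14. In MPP the counts were 2, 5, 0 and 14 in controls and 22, 0, 0 and 38 in deleted mice. Neither population passed the filter on low counts for this gene. HPC-1 held 57, 45, 0 and 29 counts in controls and 22, 50, 0 and 14 in deleted mice, with a log2 fold change of -0.31 ± 1.14 (edgeR adjusted p = 0.999). Both genotypes included libraries with none, and in HPC-1 and MPP both mice of litter 3 had none. Lin28a thus differed by less than the spread between libraries in each population.

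Hmga2 encodes a chromatin protein that promotes self-renewal of fetal stem cells and is the best known let-7 target among the members. In HSC its control libraries were at 12.3, 8.93, 13.0 and 8.02 CPM and its deleted libraries at 10.3, 20.8, 19.4 and 18.4 CPM. Deleted mice of litters 2 to 4 were above all controls, and the deleted mouse of litter 1, which also had the lowest Lin28b, lay among them. The log2 fold change of Hmga2 in HSC was 0.70 ± 0.32 (SE), with an edgeR unadjusted p of 0.0503, an adjusted p of 0.998 and an exact permutation p of 0.0857. In MPP the levels were 18.0, 10.4, 17.3 and 11.9 CPM in controls and 17.7, 10.1, 36.6 and 23.4 CPM in deleted mice, a log2 difference of 0.60 ± 0.37. Of the deleted mice in MPP, that of litter 2 had the lowest Hmga2 but the highest Lin28b. In HPC-1 the sign was the opposite, without passing: 46.2, 35.6, 42.9 and 50.5 CPM in controls, 29.2, 24.9, 52.7 and 31.1 CPM in deleted mice, log2 fold change -0.35 ± 0.21 (edgeR adjusted p = 0.999). The genotypes overlapped in all 3 populations.

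The IGF2BP proteins bind messenger RNAs such as those of Igf2 and Myc and act on their stability and translation. Igf2bp1 had 0 counts in all 24 libraries, which allows at most 0.108 to 0.311 CPM per library (3 counts of its raw total, counting error only). Igf2bp2, the family member that persists in adult tissues, was higher in HSC than in MPP. In control mice it was at 7.91, 7.62, 11.7 and 14.5 CPM in HSC and 5.17, 3.41, 2.75 and 2.82 CPM in MPP. All 4 HSC values were above all 4 MPP values, as for 8.96% of 13321 genes. Arid3a and Lin28b were also higher in every control HSC library than in any control MPP library. Igf2bp2 was the only member to pass in this comparison, with a log2 difference of MPP against HSC of -1.52 ± 0.35 (edgeR adjusted p = 0.0143), where 8.84% of 13636 genes passed (1205, or 2109 with the mouse as a block). It passed in all 8 fits that each left out 1 library, with adjusted p of 0.0137 to 0.0479. Lin28b and Lin28a were not tested there, because they did not pass the filter.

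Deleted mice showed the same order for Igf2bp2: 6.54, 23.8, 15.5 and 15.97 CPM in HSC and 1.33, 3.87, 2.82 and 6.31 CPM in MPP. Again the lowest HSC value was above the highest MPP value, as for 6.66% of 13321 genes. The log2 difference was -2.08 ± 0.55 with an edgeR adjusted p of 0.0972, which became 0.0407 with the mouse as a block and 0.00592 with DESeq2. Of the members tested in deleted mice (Igf2bp2, Igf2bp3, Hmga2 and Arid3a) none passed without the block, where 1.41% of 13887 genes did. Lin28b was only described there. By genotype, Igf2bp2 had a log2 fold change of 0.57 ± 0.40 in HSC (edgeR adjusted p = 0.998) and a log2 difference of 0.02 ± 0.50 in MPP. HPC-1 libraries were at 4.08, 3.21, 1.06 and 3.69 CPM in controls and 2.51, 2.09, 8.17 and 5.57 CPM in deleted mice, a log2 fold change of 0.60 ± 0.50 (edgeR adjusted p = 0.999). Genotypes overlapped throughout for this gene.

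Igf2bp3, a fetal and tumour-associated member of the family, overlapped between genotypes in all 3 populations. HSC libraries were at 4.72, 5.08, 8.46 and 10.3 CPM in controls and 16.1, 3.78, 7.19 and 3.23 CPM in deleted mice. The single high value was the deleted mouse of litter 1, the same library that was lowest in Lin28b, and without it the log2 fold change of 0.09 ± 0.55 became -0.57. In MPP Igf2bp3 was at 1.38, 5.83, 4.91 and 3.81 CPM in controls and 3.89, 7.79, 5.83 and 3.33 CPM in deleted mice (log2 difference 0.38 ± 0.48). In HPC-1 it was at 3.24, 3.45, 4.12 and 2.02 CPM in controls and 6.90, 4.81, 5.12 and 2.88 CPM in deleted mice. Each deleted HPC-1 library was above its littermate, as for 7.84% of 13907 genes, but the groups overlapped, and the log2 fold change of 0.62 ± 0.37 did not pass (edgeR adjusted p = 0.999, exact permutation p = 0.114).

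Arid3a encodes a DNA-binding protein of B lineage and fetal-type lymphoid development that is itself repressed by let-7. In HPC-1 its level was 31.1, 28.3, 28.2 and 34.2 CPM in controls and 41.5, 45.8, 32.5 and 38.4 CPM in deleted mice. Again each deleted mouse was above its littermate, and only the deleted mouse of litter 3 fell inside the control range. The log2 fold change was 0.37 ± 0.14 (edgeR unadjusted p = 0.0149, adjusted p = 0.778) and the exact permutation p was 0.0571, or 0.0286 on raw library totals. In HSC Arid3a was at 15.7, 18.4, 18.0 and 12.7 CPM in controls and 18.0, 9.28, 17.0 and 23.6 CPM in deleted mice (log2 fold change 0.07 ± 0.32), and in MPP at 8.77, 11.1, 8.11 and 11.8 against 12.2, 12.9, 7.78 and 15.02 CPM (0.28 ± 0.28). The populations differed by -0.68 ± 0.23 for MPP against HSC in control mice, not past the threshold (edgeR adjusted p = 0.0973). DESeq2 called that difference (adjusted p = 0.0453). Every control HSC value of Arid3a was above every control MPP value, as for 8.96% of 13321 genes.

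**Figure D2:**
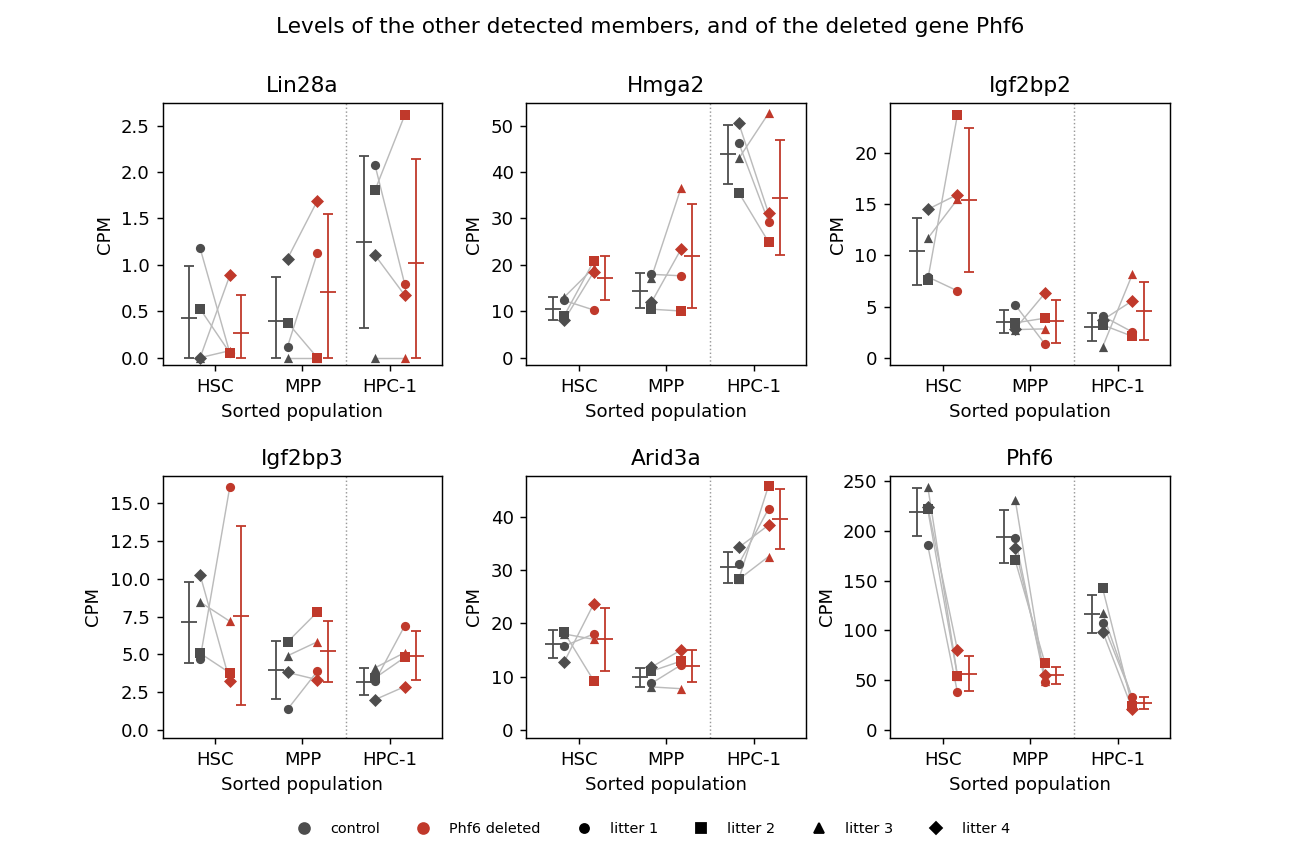
Levels in CPM (vertical axes, each on its own scale) of Lin28a, Hmga2, Igf2bp2, Igf2bp3, Arid3a and Phf6 in the 24 libraries by sorted population (horizontal axes), with symbols for litters, grey lines between littermates, and crossbars with whiskers for mean ± SD of 4 libraries, cut at 0. Genotypes overlap for all 5 members in all populations, whereas Phf6 separates them in each.

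Counting each population, 5 of 7 members passed the filter on low counts in HSC and in MPP and 6 of 7 in HPC-1. In HSC all 5 and in HPC-1 4 of 6 fitted log2 fold changes were above 0, against 50.8% and 49.3% of all genes tested, whose medians were 0.0063 and -0.0037. Apart from Lin28b they lay between 0.07 and 0.70 for HSC, 0.02 and 0.60 for MPP, and -0.35 and 0.62 for HPC-1.

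**Figure D3:**
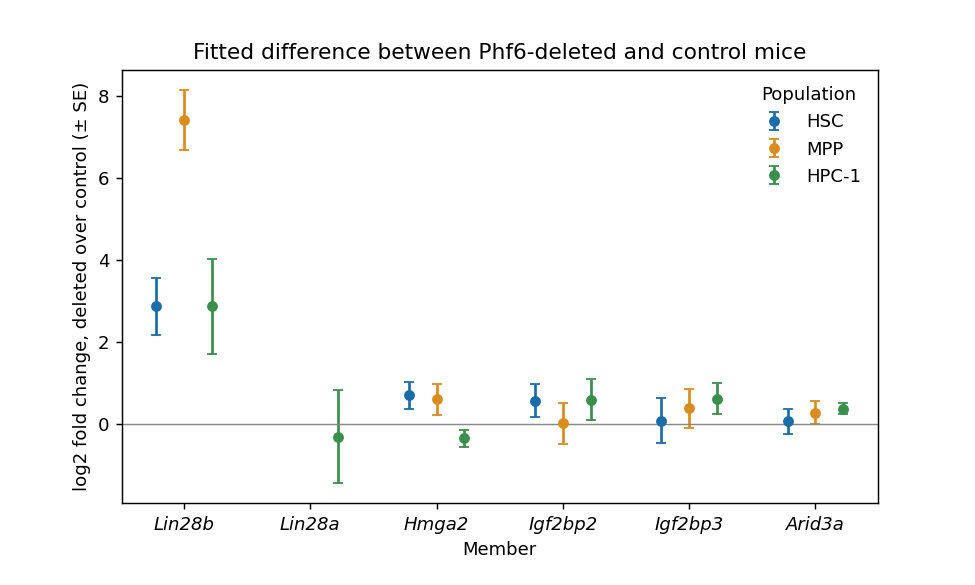
Log2 fold change of deleted over control mice (vertical axis, ± SE from edgeR) for each member that passed the filter on low counts (horizontal axis), in HSC, MPP and HPC-1. Lin28b lies at 2.87, 7.43 and 2.87, and every other member between -0.35 and 0.70.

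Set on 1 scale per length (CPM per kilobase of the deposited gene length), the members were ordered within each population and genotype. In control HSC the order was Arid3a at 3.04 ± 0.493, Igf2bp2 at 2.67 ± 0.844, Hmga2 at 2.53 ± 0.590, Igf2bp3 at 1.64 ± 0.616, Lin28b at 0.370 ± 0.263 and Lin28a at 0.122 ± 0.161 CPM per kilobase. Neighbours in it overlapped within 1 SD except Igf2bp3 and Lin28b. In deleted HSC the leading 3 stood in reverse order, also within 1 SD of each other, and Lin28b stood at 2.73 ± 1.56 CPM per kilobase, above Igf2bp3 (1.74 ± 1.36) and within 1 SD of Arid3a (3.19 ± 1.11), Igf2bp2 (3.96 ± 1.81) and Hmga2 (4.12 ± 1.13).

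In control MPP the levels per length ran from Hmga2 (3.45 ± 0.904) through Arid3a (1.87 ± 0.334), Igf2bp3 (0.917 ± 0.442) and Igf2bp2 (0.907 ± 0.289) to Lin28a (0.113 ± 0.137) and Lin28b (0.00628 ± 0.00735 CPM per kilobase). Of these neighbours only Igf2bp3 and Igf2bp2, and Lin28a and Lin28b, overlapped within 1 SD. In deleted MPP Lin28b, last of the 6 detected members in controls, stood at 1.24 ± 0.298 CPM per kilobase, next to Igf2bp3 (1.20 ± 0.466) and Igf2bp2 (0.919 ± 0.538). HPC-1 was led by Hmga2 (10.5 ± 1.51 in controls, 8.26 ± 2.97 in deleted mice) and Arid3a (5.72 ± 0.534 and 7.42 ± 1.05), and there Lin28b was at 0.0608 ± 0.108 and 0.469 ± 0.346 CPM per kilobase.

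No gene of the machinery that makes and removes let-7 passed the test of deletion in any population, where 0.0073%, 0.029% and 0.0647% of all genes passed (HSC, MPP, HPC-1). Of 23 genes, 21 passed the filter in each; median log2 fold changes, again ordered HSC, MPP, HPC-1, were 0.05, 0.05 and -0.02, against all-gene medians of 0.0063, 0.019 and -0.0037. More of them were higher than lower in HSC (14 and 7) and MPP (12 and 9), and fewer in HPC-1 (7 and 14). The genes with the lowest unadjusted p were Tarbp2, a partner of Dicer, in HSC (0.51 ± 0.21, edgeR adjusted p = 0.998), Ddx17, a helicase of the microprocessor, in MPP (0.80 ± 0.25, adjusted p = 0.551) and Hnrnpa1, which binds the let-7a-1 hairpin, in HPC-1 (-0.17 ± 0.08, adjusted p = 0.988). Deleted MPP library 3 was the highest in Ddx17, at 301 CPM against 139 to 155 CPM in the other deleted libraries.

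Genes described as let-7 targets, other than the members, were higher and lower in mixed numbers. Of 35 listed, 30 passed the filter in HSC (13 higher, 17 lower, median -0.05), 30 in MPP (20 higher, 10 lower, median 0.12) and 31 in HPC-1 (20 higher, 11 lower, median 0.01), and none passed edgeR's test of deletion. Pbx3, a homeobox cofactor of HOX proteins, was the target with the lowest p in MPP and HPC-1. Its levels in MPP were 16.6, 14.7, 21.0 and 16.2 CPM in controls and 35.0, 34.7, 36.4 and 30.7 CPM in deleted mice. In HPC-1 they were 10.95, 9.58, 11.8 and 9.90 against 26.04, 20.5, 14.2 and 25.8 CPM. The genotypes did not overlap in either, which with deletion higher was so for 2.87% of genes in MPP and 1.58% in HPC-1. Pbx3 had log2 fold changes of 0.66 ± 0.23, 1.00 ± 0.19 and 1.04 ± 0.21 for HSC, MPP and HPC-1 (edgeR adjusted p = 0.998, 0.171 and 0.114); DESeq2 called it in MPP and HPC-1 (adjusted p = 0.000286 and 0.00267), and edgeR with the litter as a block in HPC-1 (0.0433).

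Zbtb16, the transcription factor PLZF, was lower in deleted HSC and did not pass: log2 fold change -1.30 ± 0.39 in HSC (edgeR adjusted p = 0.998), from 9.64, 13.7, 11.1 and 17.9 CPM in controls to 3.79, 4.15, 4.77 and 8.55 CPM in deleted mice. Those HSC groups did not overlap, which with deletion lower held for 1.57% of genes. Myc, the proto-oncogene, was at 450 ± 91.2 CPM in control and 276 ± 67.9 CPM in deleted MPP (-0.70 ± 0.22, adjusted p = 0.551). Between populations of control mice 7 of the 30 targets passed, 6 lower and 1 higher in MPP than in HSC, where 4.78% of all 13636 genes passed as lower and 4.06% as higher, with a median of -0.12 against -0.0068 for all genes. The 4 with the lowest p were Mycn (-0.77 ± 0.14), Rrm2, a ribonucleotide reductase subunit (-0.67 ± 0.14), the cyclin Ccnd2 (-0.48 ± 0.10) and the death receptor Fas (-2.41 ± 0.55), with edgeR adjusted p of 0.00323, 0.00789, 0.0101 and 0.0153. Mycn, Rrm2 and Ccnd2 passed in all 8 fits that left out 1 library and Fas in 4, where its adjusted p reached 0.0552.

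**Figure D4:**
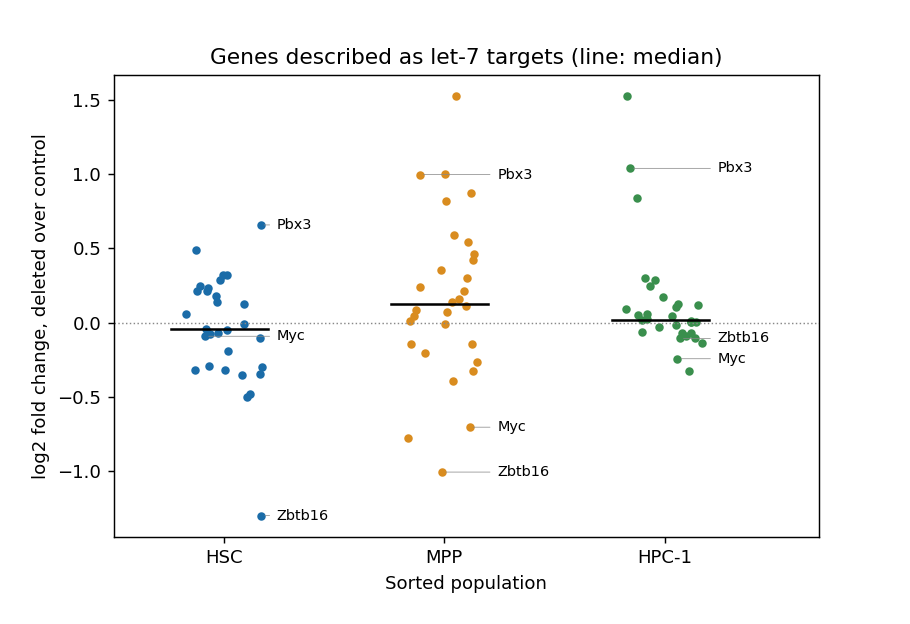
Log2 fold change of deleted over control mice (vertical axis) for each gene of the let-7 target list that passed the filter, in HSC, MPP and HPC-1 (horizontal axis, points spread sideways for visibility); black lines are medians, at -0.05, 0.12 and 0.01. Pbx3 lies at 0.66, 1.00 and 1.04 and Zbtb16 at -1.30, -1.01 and -0.11.

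Other genes with fetal expression gave no common direction. Of 21 listed, 13 passed the filter in HSC (4 higher, 9 lower, median -0.04), 11 in MPP (9 higher, 2 lower, median 0.27) and 11 in HPC-1 (7 higher, 4 lower, median 0.05), and none passed the test of deletion. Mest, an imprinted gene, was at 2.00 ± 1.07 CPM in control and 5.45 ± 2.55 CPM in deleted HSC (1.44 ± 0.61, edgeR adjusted p = 0.998) and at 2.13 ± 0.155 against 5.32 ± 3.45 CPM in MPP (1.31 ± 0.47, adjusted p = 0.596). Plag1, a zinc finger activator of Igf2, had the lowest p in HPC-1 (0.80 ± 0.26, edgeR adjusted p = 0.714). Afp, next by p there, was lower in deleted mice (-1.06 ± 0.37, edgeR adjusted p = 0.770). Igf2r was lower in each population, at -0.52 ± 0.37, -0.54 ± 0.41 and -0.58 ± 0.22 for HSC, MPP and HPC-1 (edgeR adjusted p = 0.998, 0.670 and 0.842). The embryonic globin Hba-x was at 0 counts in all libraries, and Hbb-bh1 and Hbb-y held at most 5 counts in any. Sox17, which is required by fetal but not adult stem cells, held at most 4 counts in any library. In control mice 4 of the 11 tested passed as lower in MPP than in HSC (4.78% of all genes tested) and none as higher (4.06%): Mycn, which is also on the target list, Grb10 (-0.93 ± 0.24), Ezh2 (-0.49 ± 0.13) and Cdkn1c (-0.71 ± 0.20), with edgeR adjusted p of 0.00323, 0.0305, 0.0321 and 0.0416. Leaving out 1 library kept Grb10, Ezh2 and Cdkn1c past the threshold in only 2, 3 and 2 of 8 fits (adjusted p up to 0.112).

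Genes beside Lin28b on chromosome 10 did not pass in any population. Within 1 Mb of it the RefSeq table lists 26 genes, of which 6 had a row. Hace1, a ubiquitin ligase on one side, had log2 fold changes of 0.08 ± 0.36, -0.39 ± 0.24 and -0.01 ± 0.14 across HSC, MPP and HPC-1, and Prep, a peptidase on the other side, 0.26 ± 0.17, -0.20 ± 0.16 and -0.01 ± 0.11. Prdm1, the transcription factor BLIMP1, was at 0.566 ± 0.405 CPM in control and 2.45 ± 0.116 CPM in deleted HPC-1 (2.08 ± 0.77, edgeR unadjusted p = 0.0168, adjusted p = 0.797), 0.65 ± 1.38 in HSC and 0.79 ± 0.51 in MPP. Popdc3, Bves and D030045P18Rik held at most 6 counts in any population.

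The genes whose pattern was most like that of Lin28b were ranked by Pearson's r of log2 CPM, centred on each population, over 24 libraries and 12842 genes; r is a description, since libraries share mice, genotype and kit, and the 8 MPP libraries that chose Lin28b are among them. The highest were the class II antigen presentation genes H2-Ab1 (0.833) and H2-Eb1 (0.812), the antiviral gene Rsad2 (0.810), the predicted gene Gm4951 (0.791) and Raph1, a regulator of actin (0.778). Of these 5, 1 stayed among the top 5 by Spearman's rho and 3 in the 16 SMART-Seq libraries. H2-Ab1 was at 164 ± 38.7 CPM in control and 419 ± 95.03 CPM in deleted MPP, and Raph1 at 2.44 ± 1.25 and 11.02 ± 4.11 CPM. Phf6 was near the other end, at -0.811, and Pbx3 ranked 15 with 0.741. Of the other members, r was 0.408 for Igf2bp2, 0.355 for Hmga2, 0.286 for Arid3a and 0.13 for Igf2bp3. In the 16 SMART-Seq libraries r was 0.545 for Hmga2.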

How the data were processed

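The authors deposited whole-number counts per gene for 24 libraries, with a gene length, and the submitters' processing notes name bcl2fastq, featureCounts and mm10. The deposited length, in the file's column of that name, has no stated unit and was read as bases. The aligner, the annotation, the strand setting and the versions were not given in the sources used here. HSC and MPP libraries carry no strand mark, so reads of overlapping genes there could belong to either. Symbols came from a RefSeq table of GRCm38.p6, which named 25275 of 27179 identifiers.

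Each of 5 comparisons (deletion in 3 populations, MPP against HSC in each genotype) was fitted on all genes, 4 against 4 libraries, with edgeR 4.0.16 (R 4.3.3) after TMM scaling and filterByExpr (a count of 10, 15 in total), using the robust quasi-likelihood test, Benjamini-Hochberg adjustment and a threshold of 0.05. CPM used TMM-scaled totals within a population. Alternatives were DESeq2 1.42.0, limma-voom (limma 3.58.1), other size factors, no filter, a replicate block and leaving out each library. The fit was tested on simulated data with 200 of 13693 genes changed in HSC and no litter structure. Of 100 genes changed by 3 on the log2 scale, 88 were recovered. Of those changed by 1.5, 65 were recovered, and 14 unchanged genes were called. With so many genes changed the adjusted threshold is easier to pass than in the real HSC data, where 1 gene passed. The recovery therefore does not carry over to Lin28b. Log2 CPM for the ranking used a prior count of 2.

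Named genes were the members, Phf6, up to 4 past the threshold in each list (else up to 2 with the lowest p), genes within 1 Mb of Lin28b and the 5 most like it. Members and lists were chosen with earlier results of these data known. Values given for other genes, such as Slamf1 and Pou5f1, were chosen after they were seen. Replicate numbers pair samples, since the labels give a shared litter for a number and the same mouse across populations; deviations of same-numbered libraries correlated at 0.08 to 0.38 in HPC-1 but at 0.01 to 0.06 in HSC. Libraries of a group differed by more than sampling noise (chi-square per degree of freedom 16.1 to 234). Amplified reads are not independent molecules, so counting intervals cover counting error only.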

Additional observations from a re-analysis of the deposited data

Results flagged for a closer look

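In groups of 4 libraries, a value was marked when its gap to the nearest other value made up more of the group's range than Dixon's 95% limit for 4 values allows. Among 42 groups (7 genes, Phf6 included, wherever values varied) 2 were marked, and chance marks about 1 in 20. The first was Lin28b in control HPC-1, where the litter 1 control was at 1.20 CPM and the others at 0, 0 and 0.114 CPM, with a gap of 0.905 of the range. The second was Lin28a in deleted HSC, where the litter 4 library was at 0.887 CPM and the others at 0.0499 to 0.0756 CPM, with a gap of 0.969 of the range. Both rest on few counts, 33 and 14.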

How the results depend on the processing

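Among the members, every model fit of deletion in HSC and HPC-1 kept its side of the threshold under each alternative tried, apart from Lin28b in HSC, which DESeq2 called (2.89). In MPP, Lin28b was 6.90 with limma-voom, and 6.95 to 7.97 without 1 library. Leaving out a library gave 2.58 to 3.30 for Lin28b in HSC and 2.31 to 5.73 in HPC-1. On raw library totals the deleted minus control difference of Arid3a in HPC-1 was 9.09 CPM, with an exact permutation p of 0.0286, which crossed 0.05 from 0.0571. Counts of genes moved more: DESeq2 called 19, 104 and 76 for deletion in HSC, MPP and HPC-1 and 950 for MPP against HSC in deleted mice, limma-voom 3 and no filter 20 in HPC-1. With the replicate block edgeR called 0 genes in HSC (474 at an unadjusted p under 0.05), 60 in HPC-1 and 2109 for MPP against HSC in controls. Without 1 library the counts were 0 to 1 in HSC, 2 to 22 in MPP (22 without deleted library 3), 1 to 11 in HPC-1, 832 to 1338 for MPP against HSC in controls, with 54 to 208 for the same comparison among deleted mice. Beside the calls given above for Phf6, Igf2bp2 and Pbx3, the block changed no call of a member. The cause of these shifts was not tested. With 3 or fewer counts of Lin28b in 7 control libraries, depth limits its fold changes.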

Other observations

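Phf6 and Lin28b were set side by side after their values had been seen, with no test. Phf6 was counted over the whole gene, so its level does not measure how complete the deletion was. In deleted HSC the order of the litters from low to high was the same for Phf6 (37.8, 54.3, 54.5 and 80.2 CPM in litters 1 to 4) and for Lin28b (2.94, 14.6, 19.97 and 21.5 CPM). In deleted MPP it was also the same, with litter 1 lowest in both (Phf6 48.6 CPM, Lin28b 4.40 CPM) and litter 2 highest in both (67.4 and 8.16 CPM). In deleted HPC-1 it was not: litter 1 had the highest Phf6 (32.8 CPM) and the lowest Lin28b (0.718 CPM). Only 4 mice stand behind each order.

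The germ cell helicase Ddx4 was in MPP at 18.1 ± 4.25 CPM in controls and 67.1 ± 52.1 CPM in deleted mice (SD, n = 4 each; log2 fold change 1.89 ± 0.44, edgeR adjusted p = 0.328, DESeq2 0.00434). Deleted library 3 held 144 CPM of it and the other 3 held 30.9 to 49.5 CPM. Dazl, another germ cell gene of the list, was at 1.02 ± 0.759 CPM in deleted MPP. Dnd1, also of the list, had a log2 fold change of 0.05 ± 0.37 in MPP (edgeR adjusted p = 0.970). In HPC-1 Ddx4 was at 22.2 ± 1.60 and 23.9 ± 7.39 CPM.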
